A study of Rattus norvegicus with 20 samples.

Results

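Expression of 3 fibrillar collagen genes and of lysyl oxidase was followed in rat bone marrow mesenchymal stromal cells (MSCs) kept on soft or stiff surfaces. The genes were Col1a1 (ENSRNOG00000003897), Col1a2 (ENSRNOG00000011292), Col3a1 (ENSRNOG00000003357) and Lox (ENSRNOG00000014426), which are 4 of the 30560 genes in the count table. They were chosen by identifier for what they encode and not by a rule on their measured values, though earlier results of these data were known. The symbols were given together with the identifiers and were not checked against an annotation here.

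MSCs of female Wistar rats, each isolate from a single animal, were grown on gelatin-coated silicone of 2 kPa (soft) or 100 kPa (stiff), with a passage every week, and the poly(A) RNA was sequenced in bulk. Cells stayed on soft for 1, 3 or 5 weeks (1w2, 3w2, 5w2) or on stiff for the same times (1w100, 3w100, 5w100). In the switched cultures, 3 weeks on soft were followed by 2 weeks on stiff (3w2→2w100), or 3 weeks on stiff by 2 weeks on soft (3w100→2w2). There were 3 libraries in each group of 1 and 3 weeks and 2 in each group of 5 weeks in all, 20 in total, and no drug or genetic change is given for any group. All groups shared the gelatin coating and a bead enrichment for CD54 and CD90, and no freshly isolated, uncultured cells were sequenced. Markers of stromal or other cell types were not tested, because the identifiers could not be paired with their symbols.

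Fibrillar collagens are the ropes of connective tissue. Type I collagen is a triple helix built from the chains that Col1a1 and Col1a2 encode, normally with more of the Col1a1 chain, and it bears most of the tension in skin, tendon, bone and scar. Type III collagen is built from the Col3a1 chain alone, forms thinner fibrils with type I, and is typical of young, compliant connective tissue and early wounds. Lysyl oxidase, the secreted copper enzyme encoded by Lox, oxidises lysine residues of collagen and elastin so that fibrils become cross-linked and stiffer. In fibrosis these genes are commonly used as readouts of matrix production by myofibroblasts, which is the cell state that stiff culture is meant to promote.

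The libraries held 16127907 to 24139128 counts on genes, with a median of 18716923. Levels are given as CPM, each library's counts brought to a common total and corrected for composition by TMM factors, and fold changes are on the log2 scale from edgeR. Since transcript lengths were not used, a CPM value of a gene can be set against itself in other libraries, but not against another gene. Together the 4 genes took 3.81% to 8.45% of all counts in a library, with a median of 6.11%. Ranked by counts in each library, Col1a1 stood between position 1 and 3 and Lox between 78 and 305.

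A set of 3 libraries stood apart and is named here before the results. These were replicate 1 of 3w2, of 5w2 and of 3w2→2w100, in which Col1a2 was low relative to Col1a1. Both genes were at their lowest of the group in these libraries, Col1a1 by less, with 1.24-fold, 1.31-fold and 1.64-fold more in replicate 2. Their ratio of Col1a1 to Col1a2 counts was 2.24, 3.09 and 3.06, and it was 1.25 to 1.64 in the other 17 libraries. Their totals of 21720761, 24103082 and 17906049 counts lay within the range of the others. Whether these 3 libraries come from the same animal is not stated in the sources used here, so values without them are also given where they move a result. They were picked after the values were seen, for low Col1a2 relative to Col1a1. Without them, 5w2 and 3w2→2w100 hold a single library each. Leaving them out therefore raises the soft-primed level of Col1a1 and Col1a2. It also raises that of Lox and Col3a1 at 5 weeks, where both were lower in them than in replicate 2. Such values are no independent check. In bulk RNA, fewer cells of a type and less RNA per cell cannot be told apart.

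**Figure D1:**
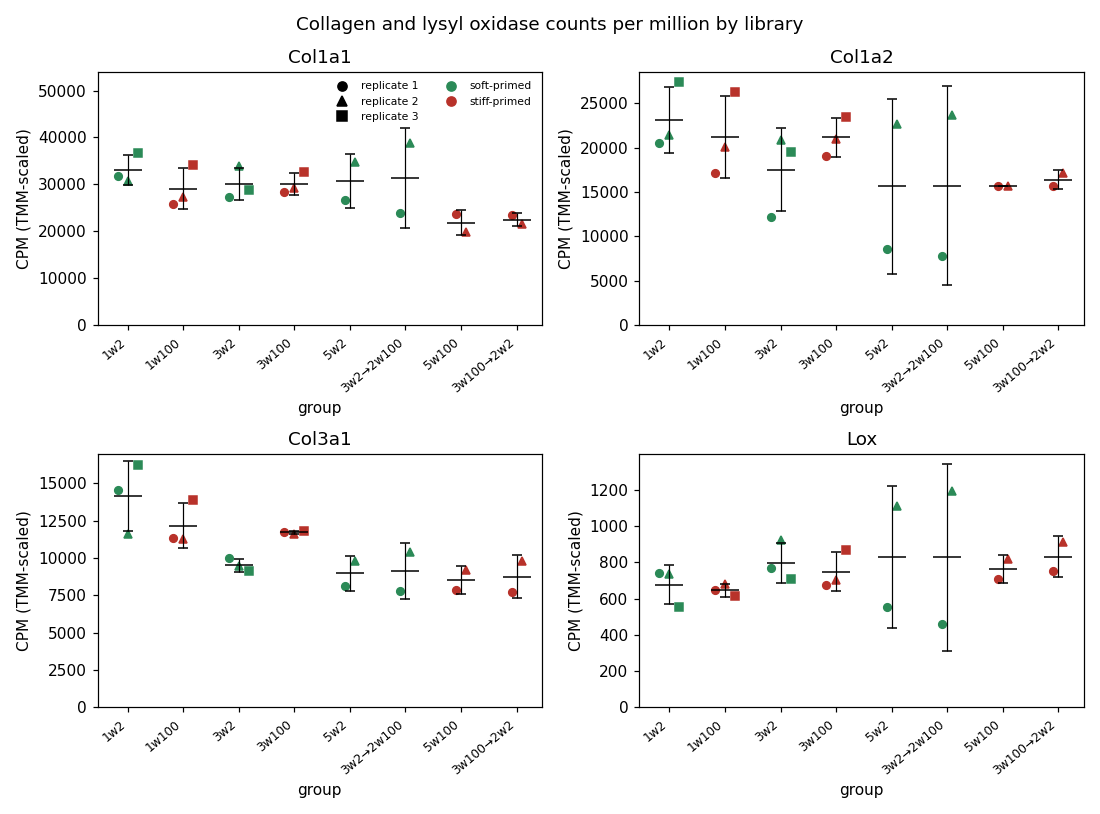
Level of each gene in each library, in CPM after TMM scaling (vertical axes from 0), by group. Points are libraries, shaped by replicate number and coloured by priming surface (green soft, red stiff), and black bars give the mean ± SD. The group means of Col3a1 are highest at 1 week, and Col1a2 and Lox are split widest between replicates 1 and 2 in 5w2 and 3w2→2w100.

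Across the 18 comparisons of the 8 groups, 1 of 72 gene tests passed, a fall of Col3a1 on soft surfaces between 1 and 5 weeks. None of the 4 genes passed in any comparison of stiff with soft surfaces, of switched with unswitched cultures, or of priming surfaces. At an unadjusted p below 0.05 there were 5 of 72, of which 4 had Col3a1 lower later in culture and 1 had Col1a1 lower after stiff priming. These shares, 1.39% called and 6.94% at the unadjusted p, were below those of all genes over the same 18 comparisons, 3.29% and 11.7%. All 4 genes passed the filter on low values. In the comparisons where edgeR called 0% of all genes, DESeq2 called 0 to 110 genes and none of these 4.

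Col3a1, the type III collagen chain, was the gene whose level moved most clearly with time. In 1w2 it stood at 14576, 11592 and 16250 CPM in replicates 1 to 3, and in 1w100 at 11348, 11261 and 13915 CPM. After 3 weeks it was 9992, 9456 and 9117 CPM on soft and 11741, 11612 and 11799 CPM on stiff. After 5 weeks the values were 8153 and 9802 CPM in 5w2 and 7870 and 9176 CPM in 5w100. Every one of the 8 libraries of 5 weeks, at 7733 to 10432 CPM, lay below every one of the 6 libraries of 1 week, at 11261 to 16250 CPM. For this and the later separations of libraries, the share of all genes separated alike was not counted. On soft the 3-week libraries had already reached the range of the 5-week libraries, whereas on stiff they lay within the range of 1 week.

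On soft surfaces Col3a1 fell by 0.66 on the log2 scale from 1 to 5 weeks (SE 0.20, 95% interval −1.08 to −0.23, edgeR adjusted p = 0.0378), a level 1.57-fold lower. In this comparison 15.3% of the 14034 genes tested passed, with a median log2 fold change of −0.01. By absolute log2 fold change, Col3a1 stood at percentile 75.5 of these genes. The call was close to the threshold. Over 30 alternative analyses the log2 fold change lay between −0.81 and −0.53. The adjusted p was 0.00143 under DESeq2 and 0.163 in the fit on only the groups compared. The call was kept in 21 of the 30, but 20 of the 30 each left out 1 library, mostly from groups outside this comparison. Without the 3 libraries named above the log2 fold change was −0.53. That is the direction set by leaving out replicate 1 of 5w2, the lower of its 2 libraries. Among the libraries of 1w2 and 5w2, leaving out any but replicate 2 of 1w2 ended the call. The adjusted p was 0.0964 and 0.105 without replicate 1 and 3 of 1w2. Without replicate 1 and 2 of 5w2 the log2 fold change was −0.53 and −0.79. Outside this comparison, leaving out replicate 1 of 3w2 (adjusted p 0.051) or replicate 3 of 3w100 (0.0511) also ended it.

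From 1 to 3 weeks on soft, the log2 fold change of Col3a1 was −0.57 (SE 0.17, interval −0.94 to −0.20, adjusted p = 0.0597), where 8.03% of genes passed. Although the ranges of 1w2 and 3w2 did not overlap, this comparison did not pass. It passed under DESeq2 (adjusted p = 0.00351), with total-count scaling (0.0245), in a fit blocked by replicate (0.046) and without replicate 2 of 1w2 (0.0333). Total-count scaling also moved the median of all genes to −0.11 here. The block took a number as the same unit at 1 and 3 weeks, which was not checked. Without the 3 libraries that stood apart the adjusted p was 0.139, at a log2 fold change of −0.60. From 3 to 5 weeks on soft, where 0% of genes passed and 1315 had an unadjusted p below 0.05, the value was −0.08, with an interval of −0.50 to 0.33, and 0.08 without those 3 libraries.

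On stiff surfaces the larger fitted change of Col3a1 lay in the later weeks. Between 1 and 3 weeks the log2 fold change of Col3a1 was −0.06 (interval −0.43 to 0.32, adjusted p = 0.891), with 8.41% of genes called. Between 3 and 5 weeks it was −0.46 (interval −0.88 to −0.04, adjusted p = 0.772), a comparison in which edgeR called 0% of genes and 889 had an unadjusted p below 0.05. The whole change from 1 to 5 weeks was −0.51 (SE 0.20, interval −0.94 to −0.09, adjusted p = 0.0871), against 17.2% of genes called. In absolute size it stood at percentile 67.4 of the genes tested. DESeq2 and total-count scaling gave this change adjusted p of 0.0186 and 0.0253. Total-count scaling also moved the median of all genes to −0.18 here.

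The 3-week groups were the place where Col3a1 differed most between surfaces. All 3 libraries of 3w100 (11612 to 11799 CPM) lay above all 3 of 3w2 (9117 to 9992 CPM), and same-numbered libraries differed by 0.23, 0.30 and 0.37 on the log2 scale. The fitted difference was 0.30 higher on stiff (SE 0.17, interval −0.07 to 0.67, adjusted p = 0.832), in a comparison where 0% of genes passed and 863 had an unadjusted p below 0.05. After 1 week the difference had the other sign, with −0.36, −0.04 and −0.22 for replicates 1 to 3 and a fitted value of −0.22 (interval −0.59 to 0.16, adjusted p = 1). The change of the stiffness difference between 1 and 3 weeks was 0.52 (interval −0.01 to 1.04, adjusted p = 1), and this interaction called 0% of genes, with 222 at an unadjusted p below 0.05. In the order of the group means of Col3a1, 3w100 and 3w2 were also the only neighbours without overlap. By 5 weeks the difference between 5w100 and 5w2 was −0.07 (interval −0.53 to 0.38, adjusted p = 0.907), and 0.264% of genes were called (37 genes, against 498 in the fit blocked by replicate). The interactions of 5 weeks with 1 and with 3 weeks called 0% of genes as well, with 983 and 404 at an unadjusted p below 0.05, and left all 4 genes uncalled.

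**Figure D2:**
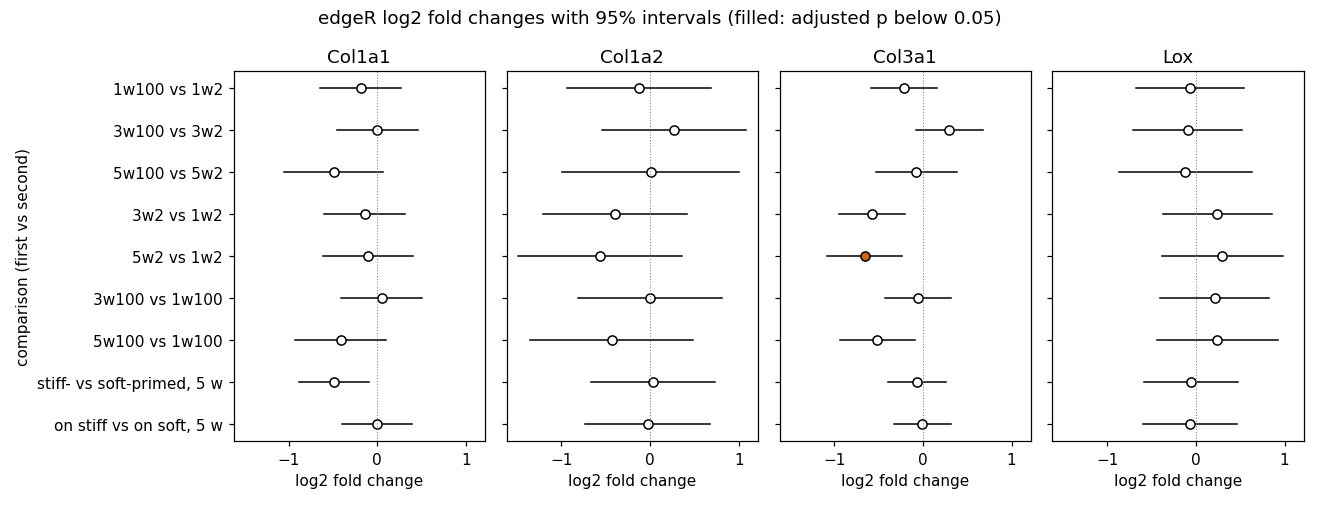
Fitted log2 fold change of each gene (horizontal axis) with its 95% interval in 9 comparisons, as first group against second. A filled point has an edgeR adjusted p below 0.05, which holds for Col3a1 in 5w2 against 1w2 (−0.66). The widest intervals are those of Col1a2.

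Col1a1, which encodes the major chain of type I collagen, had the highest counts of the 4 genes (not per length) and stayed near its starting level in most groups. Its mean was 33079 ± 3264 CPM in 1w2, 29041 ± 4402 in 1w100, 30002 ± 3416 in 3w2 and 30060 ± 2297 in 3w100 (SD, n = 3 each). At 5 weeks the group means lay further apart, though no edgeR comparison between the 5-week groups passed for Col1a1. In 5w2 the libraries stood at 26585 and 34798 CPM and in 3w2→2w100 at 23798 and 38907 CPM, compared with 23746 and 19897 CPM in 5w100 and 23424 and 21462 CPM in 3w100→2w2. All 4 stiff-primed libraries thus lay below all 4 soft-primed libraries, with a gap of 23746 to 23798 CPM that is much smaller than the spread within either soft-primed group. In the order of the 8 group means, the ranges of 1w100 and 3w100→2w2 were the only neighbours without overlap.

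Priming on stiff surfaces was tested over these 8 libraries, irrespective of the surface of the last 2 weeks. The log2 fold change of Col1a1 was −0.49 (SE 0.18, interval −0.88 to −0.09), a level 1.40-fold lower after stiff priming, but the adjusted p of 0.108 did not pass, in a comparison where 9.75% of genes did. Leaving out 1 library moved the value from −0.64, without replicate 1 of 3w2→2w100, to −0.29, without replicate 2 of that group. The count of all genes called, 1369, rose to 2297 in the fit blocked by replicate. It was 393 and 409 without replicate 2 of 3w100→2w2 and of 5w100, 724 and 782 without replicate 2 and 1 of 5w2, 812 without replicate 1 of 3w2→2w100, and 2164 without replicate 1 of 5w100. DESeq2 called Col1a1 (−0.48, adjusted p = 0.02), and over the 30 alternatives the adjusted p ran from 0.02 to 0.33. Most of the difference lay in the libraries of replicate 2. There 5w100 was 0.81 lower than 5w2 and 3w100→2w2 was 0.70 lower, while in replicate 1 the same differences were −0.16 and −0.18. Without the 3 libraries named above, which were low in Col1a1 too, the priming value was −0.73, in the direction set by their choice.

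The direct comparisons that make up the priming contrast gave intervals that crossed 0. Between 5w100 and 5w2 Col1a1 differed by −0.49 (interval −1.05 to 0.06, adjusted p = 0.39), with −0.29 without replicate 2 and −0.67 without replicate 1 of 5w2. Between cells that were all on stiff, 3w2→2w100 stood 0.52 above 5w100 (interval −0.03 to 1.08, adjusted p = 0.388), where 0.057% of genes passed (8, against 358 with the block). This value rested on the spread of 3w2→2w100, since it was 0.13 without its replicate 2 and 0.83 without its replicate 1, and 0.83 without the 3 libraries that stood apart. Between cells that were all on soft, 3w100→2w2 stood at −0.45 relative to 5w2 (interval −1.01 to 0.11, adjusted p = 0.478), where 0.178% passed (25, against 354 with the block). Here the value was −0.25 without replicate 2 and −0.63 without replicate 1 of 5w2, and −0.63 without those 3 libraries. With time on stiff, Col1a1 changed by −0.46 from 3 to 5 weeks (interval −0.98 to 0.05, adjusted p = 0.814) and by −0.41 from 1 to 5 weeks (interval −0.93 to 0.10, adjusted p = 0.256). On soft the value from 1 to 5 weeks was −0.11 (interval −0.62 to 0.40, adjusted p = 0.813), and 0.08 without the 3 libraries that stood apart.

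Surface stiffness in the first 3 weeks left Col1a1 within the replicate spread. The difference between 1w100 and 1w2 was −0.19 (interval −0.64 to 0.27), with 25768, 27310 and 34046 CPM on stiff and 31813, 30638 and 36787 CPM on soft, and 0% of genes passed at 1 week, with 54 at an unadjusted p below 0.05. All 3 same-numbered differences were negative, from −0.30 to −0.11. Between 3w100 and 3w2 the difference was 0.00, with an interval of −0.45 to 0.46.

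Col1a2 encodes the second chain of type I collagen. Of the 4 genes it was the 1 with an entry in the RefSeq table of gene starts, and a stretch with the letters of a CCAAT and a TATA box is shown. RefSeq places the stretch at chr4:33518307-33518410 of build GRCr8, plus strand, which is not the build of the counts. It is the distal part of a window of 300 bases around the annotated start, printed 5′ to 3′ with motif letters in capitals: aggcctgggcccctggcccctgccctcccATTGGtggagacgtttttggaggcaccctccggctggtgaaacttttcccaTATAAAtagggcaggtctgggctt. The capitals mark bases 30 to 34, the letters CCAAT read on the opposite strand, and bases 81 to 86, the letters TATAAA. Searched on both strands in windows of this length, CCAAT was found in 37.5% and TATAAA in 14.2% of 33469 annotated starts. The letters GGGCGG, which 33.1% of windows hold, were not in this window. The window holds 250 bases before the annotated start and 50 after it, so both matches lie well before that start. These matches are letters in a sequence, not measured binding, and were not tested as promoter elements.

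The level of Col1a2 separated replicates rather than groups. In 1w2 it was 20577, 21438 and 27410 CPM, and in 1w100 it was 17162, 20117 and 26264 CPM. In 3w2 replicate 1 stood at 12156 CPM, below replicates 2 and 3 at 20898 and 19552 CPM, whereas 3w100 held 19109, 20990 and 23484 CPM. At 5 weeks the soft-primed cultures were split, with 8612 and 22636 CPM in 5w2 and 7771 and 23691 CPM in 3w2→2w100, which is 2.63-fold and 3.05-fold more in replicate 2. The stiff-primed cultures were not, with 15674 and 15704 CPM in 5w100 and 15645 and 17171 CPM in 3w100→2w2. In all 4 soft-primed libraries of 5 weeks Col1a2 lay outside the narrow range of the stiff-primed libraries, on opposite sides for the 2 replicate numbers.

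**Figure D3:**
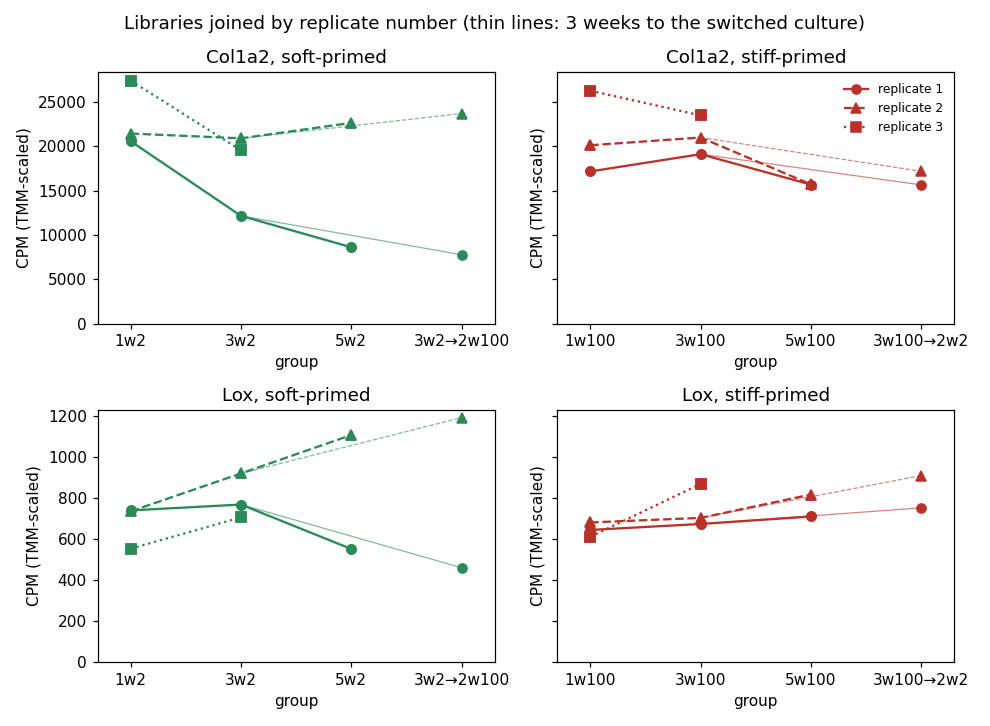
CPM (vertical axes from 0) of Col1a2 and Lox in soft-primed (left) and stiff-primed (right) groups, with libraries of the same replicate number joined, and thin lines leading from 3 weeks to the switched culture. Among soft-primed libraries, replicate 1 of Col1a2 is at 20577 CPM at 1 week and at 8612 and 7771 CPM at 5 weeks, while replicate 2 lies between 20898 and 23691 CPM. The joined numbers were not checked for pairing between weeks.

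Because of this split, the group means of Col1a2 at 5 weeks were nearly equal and say little about single cultures. They were 15624 ± 9917 CPM in 5w2, 15689 ± 21.4 in 5w100, 15731 ± 11257 in 3w2→2w100 and 16408 ± 1079 in 3w100→2w2 (SD, n = 2 each). The difference between 5w100 and 5w2 was 0.01 on the log2 scale with an interval of −0.99 to 1.00, with 0.86 in replicate 1 and −0.53 in replicate 2. For the priming surface it was 0.03 (interval −0.67 to 0.74, adjusted p = 0.972). Without the 3 libraries that stood apart it became −0.53, in the direction set by their choice. From 1 to 5 weeks the value was −0.57 on soft (interval −1.49 to 0.36, adjusted p = 0.418), and −0.03 without the 3 libraries. Same-numbered libraries differed by −1.26 in replicate 1 and 0.08 in replicate 2, whereas the fit also uses replicate 3 of 1w2. Pairing of numbers between weeks was not checked. On stiff the fitted value was −0.43 (interval −1.35 to 0.48, adjusted p = 0.518). The stiffness differences at 1 and 3 weeks were −0.13 (interval −0.94 to 0.68) and 0.27 (interval −0.54 to 1.09), the second 0.07 without the libraries that stood apart. No neighbours in the order of the group means of Col1a2 were free of overlap.

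The ratio of the chains of type I collagen shows the same libraries from another side. Counts of Col1a1 per count of Col1a2 averaged 1.44 ± 0.10 in 1w2, 1.39 ± 0.11 in 1w100 and 1.42 ± 0.05 in 3w100 (SD, n = 3 each), and 1.39 ± 0.18 in 5w100 and 1.37 ± 0.17 in 3w100→2w2 (SD, n = 2 each). In soft-primed cultures after the first week, replicate 1 had 2.24, 3.09 and 3.06, against 1.62, 1.54 and 1.64 in replicate 2 of the same groups and 1.48 in replicate 3 of 3w2. At 1 week replicate 1 on soft had 1.55, within the range of the others. These ratios are not per length and do not give the ratio of the chains in the protein.

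**Figure D4:**
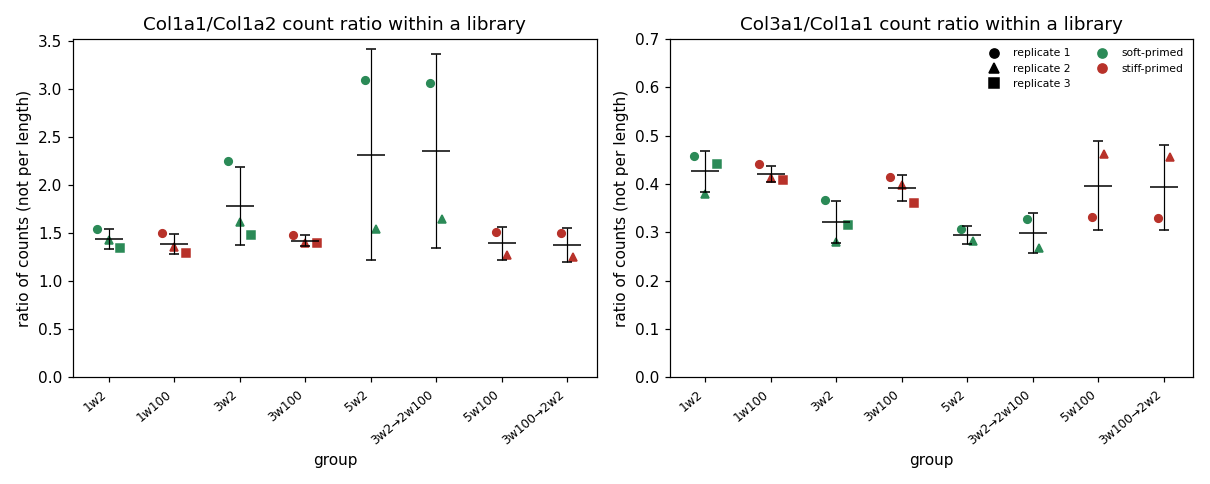
Ratio of counts within a library (vertical axes from 0, not per length) by group, for Col1a1 over Col1a2 (left) and Col3a1 over Col1a1 (right). Points are libraries and black bars the mean ± SD. On the left, 3 soft-primed libraries of replicate 1 stand at 2.24 to 3.09 above the other 17 at 1.25 to 1.64, and on the right the soft-primed libraries of 3 and 5 weeks lie at 0.268 to 0.366.

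The ratio of Col3a1 to Col1a1 counts followed a different course. Counts of Col3a1 per count of Col1a1 were 0.378 to 0.458 in the 6 libraries of 1 week, with a median of 0.426. In the 7 soft-primed libraries of 3 and 5 weeks the ratio was 0.268 to 0.366, with a median of 0.307 and without overlap with 1 week. In the 7 stiff-primed libraries of those times it was 0.330 to 0.461, with a median of 0.398, which overlapped both ranges. The stiff-primed cultures of 5 weeks were split by replicate number, with 0.331 and 0.330 in replicate 1 of 5w100 and 3w100→2w2 and 0.461 and 0.455 in replicate 2. Against the other type I chain, the soft-primed libraries did not lie on one side of 1 week. Counts of Col3a1 per count of Col1a2 were 0.530 to 0.708 at 1 week. In soft-primed libraries of 3 and 5 weeks they were 0.822, 0.947 and 1.00 in replicate 1, and 0.433 to 0.466 in the others. These ranges are a description with no test, since the ratios were formed after the levels were known.

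Lox, the cross-linking enzyme, had the lowest counts of the 4 genes in every library (not per length). In 1w2 it stood at 741, 736 and 553 CPM and in 1w100 at 645, 682 and 612 CPM. At 3 weeks it was 769, 921 and 706 CPM on soft and 674, 704 and 870 CPM on stiff. The difference between stiff and soft was −0.07 at 1 week (interval −0.68 to 0.55) and −0.09 at 3 weeks (interval −0.71 to 0.52), both smaller than the spread between replicates.

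At 5 weeks Lox was split in the soft-primed cultures along the same replicate numbers as Col1a2. It stood at 552 and 1109 CPM in 5w2 and at 460 and 1194 CPM in 3w2→2w100, 2.01-fold and 2.59-fold more in replicate 2. In 5w100 the libraries had 711 and 818 CPM and in 3w100→2w2 they had 753 and 911 CPM, all between the soft-primed extremes. Replicate 1 of 3w2, where Col1a2 was already low, had 769 CPM of Lox and was not low. The fitted value for 5w100 against 5w2 was −0.12 (interval −0.87 to 0.63, adjusted p = 0.911), from 0.36 in replicate 1 and −0.44 in replicate 2. For the priming surface it was −0.06 (interval −0.59 to 0.48, adjusted p = 0.921). Without the libraries that stood apart it was −0.53, in the direction set by their choice.

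With time in culture, the mean level of Lox lay above that of 1 week in every later group, but no test of it passed. The log2 fold change from 1 to 5 weeks was 0.30 on soft (interval −0.39 to 0.98, adjusted p = 0.586) and 0.24 on stiff (interval −0.44 to 0.93, adjusted p = 0.638). On soft, same-numbered libraries differed by −0.42 in replicate 1 and 0.59 in replicate 2, though pairing of numbers between weeks was not checked. The fitted value without the 3 libraries that stood apart was 0.72, in the direction set by their choice. The group means ran from 646 ± 35.1 CPM in 1w100 to 832 ± 112 in 3w100→2w2, and all neighbours in this order overlapped.

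Moving cells to the other surface for the last 2 weeks gave fitted log2 differences of at most 0.12 in the 4 genes, with intervals too wide to exclude larger ones. In stiff-primed cells, 3w100→2w2 differed from 5w100 by 0.04 for Col1a1, 0.06 for Col1a2, 0.04 for Col3a1 and 0.12 for Lox. In soft-primed cells, 3w2→2w100 differed from 5w2 by 0.03, 0.01, 0.02 and −0.01 for the same genes. The intervals in soft-primed cells were −0.52 to 0.59 for Col1a1, −0.98 to 1.00 for Col1a2, −0.43 to 0.48 for Col3a1 and −0.76 to 0.75 for Lox. In stiff-primed cells they were −0.52 to 0.60, −0.93 to 1.06, −0.42 to 0.49 and −0.63 to 0.87. Leaving out replicate 2 of 3w2→2w100 took the soft-primed values to −0.37, −1.01, −0.21 and −0.85, so that they rested on the balance of both replicate numbers. Neither switch called a gene of the whole table (0%), with 87 and 52 genes at an unadjusted p below 0.05. Within soft-primed cells the direction followed the replicate number, since all 4 genes were lower on stiff in replicate 1 (−0.26 to −0.07) and all 4 were higher in replicate 2 (0.07 to 0.16).

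Averaged over both priming surfaces, the current surface gave 0.00 for Col1a1 (interval −0.40 to 0.39), −0.03 for Col1a2 (−0.73 to 0.68), −0.01 for Col3a1 (−0.33 to 0.31) and −0.06 for Lox (−0.60 to 0.47), with 0% of genes called and 114 at an unadjusted p below 0.05. These intervals bound the difference most tightly for Col3a1 and least for Col1a2. They do not show that the surfaces act alike.

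The spread between replicates set how small a change could be seen in each gene. The pooled SD within groups, on the log2 CPM scale, was 0.18 for Col3a1, 0.22 for Col1a1, 0.39 for Lox and 0.50 for Col1a2, and the median over the 14034 genes tested was 0.23. Col3a1 thus varied less than the median gene within groups and Col1a2 more than 78.1% of genes. Both hold against all genes tested, and genes of like level were not compared apart. Counting error played little part at these counts, since even Lox had 7881 counts in its lowest library.

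Across the 20 libraries, the levels of the collagen genes were more like each other than like those of Lox. Pearson's r of log2 CPM was 0.64 between Col1a1 and Col1a2, 0.60 between Col1a1 and Col3a1 and 0.70 between Col1a2 and Col3a1. With Lox it was 0.27, 0.46 and −0.05 for Col1a1, Col1a2 and Col3a1. By ranks, the type I chains were closest, with a Spearman's rho of 0.87. With Lox, rho was 0.16 for Col1a1, 0.23 for Col1a2 and −0.11 for Col3a1. These values describe libraries that share groups and perhaps animals, and no test is attached to them.

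Among 8635 genes with a mean of at least 10 CPM, the gene whose levels were most like those of Col1a1 over the 20 libraries was ENSRNOG00000016122 (Pearson's r 0.82). For Col1a2 it was ENSRNOG00000008586 (0.91), for Col3a1 ENSRNOG00000001049 (0.91) and for Lox ENSRNOG00000010234 (0.86). None of the 4 genes was the closest partner of another by this measure. Among the 8635 genes, Col1a2 had rank 122 for Col1a1, Col1a1 had rank 701 for Col3a1, and Col1a2 had rank 691 for Lox. By Spearman's rho, the closest gene to Col1a2 was Col1a1 itself (0.87), and ENSRNOG00000016122 again came first for Col1a1 (0.88).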

How the data were processed

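The 20 bulk RNA-seq libraries were sorted into 8 groups by their sample labels, which also gave the replicate numbers. Raw counts for each Ensembl gene were deposited by the authors, who trimmed with TrimGalore!, checked reads with FastQC, mapped with HISAT2 to mRatBN7.2, counted with featureCounts and tested with DESeq2. Software versions, strand setting and treatment of multiply mapped reads are not given in the sources used for this text. The table has 30560 rows, and 0 of them name no gene.

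Counts were tested with edgeR 4.0.16 in R 4.3.3 by the quasi-likelihood test, with TMM factors and filterByExpr (minimum count 10, total 15), in 1 model of 8 groups over all 20 libraries without a block. Adjusted p are Benjamini-Hochberg values over the 14034 genes tested, called below 0.05, and intervals are 95%. CPM use TMM factors, and log2 CPM a prior count of 2. The scripts were tested on simulated data. The 4 genes and the comparisons were chosen with earlier results of these data known. Totals were 16127907 to 24139128 counts, a depth at which the spread between replicates, not counting error, limits these genes.

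The replicate numbers were checked for pairing by correlating deviations from group means over genes. This was done only between groups of equal weeks, so no number was linked to the same number at another time. Same-numbered libraries had r of 0.63 to 0.78 at 1 week and 0.08 to 0.46 at 3 weeks. Among the 5-week groups, which have 2 numbers, r was 0.76 and 0.80 within a priming surface. Between priming surfaces it was 0.17 to 0.25. By a criterion of r above 0.1 for every one of at least 3 pairs, the numbers pair the libraries at 1 week and, over the 4 groups of 5 weeks together (12 pairs), at 5 weeks, but not at 3 weeks. Between priming surfaces at 5 weeks the criterion decides little, since libraries of different numbers reached 0.17 at 3 weeks. In groups of 2 libraries the deviations mirror each other, so that both pairs of a pair of groups share 1 value of r. The sources do not say that a number marks 1 rat, so p-values measure the spread between these libraries. The fit blocked by replicate nevertheless took a number as the same unit at all weeks.

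The named genes are the 4 genes in every comparison and, for likeness, the closest gene by Pearson's r among those with a mean of at least 10 CPM. The alternatives were DESeq2 1.42.0, fits on only the groups compared, the replicate number as a block, RLE factors, total counts, scaling without the 4 genes, no filter, a filter on a mean of 10 counts, counts thinned to the smallest total, and leaving out each library. Added after the values were seen was a fit without the 3 libraries that stood apart. The pathway lists and cell type markers that had been planned could not be run, because no table at hand linked Ensembl identifiers to symbols. The Col1a2 sequence is from RefSeq (GRCr8), where 1 of the 4 genes had an entry.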

Additional observations from a re-analysis of the deposited data

How the results depend on the processing

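With 30 alternatives for each of 18 comparisons, the number of the 4 genes called moved in 16 of 540 cases. From 1 to 5 weeks on soft it went from 1 to 0 in fits on only the groups compared (adjusted p of Col3a1 0.163), with no filter on low counts (0.057) and without the 3 soft-primed libraries that stood apart (0.274), and lay between 0 and 1 when each library was left out. From 1 to 3 weeks on soft it went from 0 to 1 (Col3a1) under DESeq2, total counts and the replicate block, and lay between 0 and 1 with libraries left out. From 1 to 5 weeks on stiff it went from 0 to 1 (Col3a1) under DESeq2 and total counts, and for the priming surface from 0 to 1 (Col1a1) under DESeq2. Total counts moved the median over all genes, on the log2 scale, to −0.11 (soft, 3 weeks), −0.17 (soft, 5 weeks) and −0.18 (stiff, 5 weeks) relative to 1 week. Col3a1 stood there at −0.67, −0.81 and −0.68, against −0.57, −0.66 and −0.51 with TMM factors. The cause of these moves was not tested.

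Of 44 fold changes examined, 18 kept their sign under every alternative. Those that turned were at most 0.30 in size. The current surface for Col1a1 became 0.0018 under DESeq2 and with RLE factors, 0.0032 in fits on only the groups compared and 0.00058 with scaling without the 4 genes. The soft-primed switch became 0.00060 under DESeq2, 0.0053 in fits on only the groups compared, 0.00053 with RLE factors and 0.0010 with scaling without the 4 genes for Lox, and −0.0068 with the block and −0.0041 with total counts for Col1a2. Col1a1 at 3 weeks became −0.0022 in fits on only the groups compared and with no filter, and −0.0058 with total counts. Col1a2 at 5 weeks became −0.0064 with no filter. Without the 3 libraries that stood apart, Col1a1 at 3 weeks became −0.062, Col1a1 on soft from 1 to 5 weeks 0.076, Col3a1 on soft from 3 to 5 weeks 0.078, Lox for the soft-primed switch 0.11, Col1a2 at 5 weeks −0.53, Col1a2 for the priming surface −0.53, and the current surface 0.061 for Col1a1, 0.00088 for Col1a2 and 0.026 for Col3a1.

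Leaving out each library gave these ranges. The current surface ran from −0.20 to 0.15 for Col1a1, −0.54 to 0.40 for Col1a2, −0.12 to 0.089 for Col3a1 and −0.49 to 0.23 for Lox. The priming surface ran from −0.26 to 0.54 for Col1a2, −0.17 to 0.045 for Col3a1 and −0.32 to 0.37 for Lox. The difference at 5 weeks ran from −0.53 to 0.86 for Col1a2, −0.20 to 0.063 for Col3a1 and −0.54 to 0.47 for Lox, with the ends given by leaving out replicate 1 or 2 of 5w2. At 1 week it ran from −0.31 to 0.016 for Col1a2 and −0.19 to 0.0043 for Lox, and at 3 weeks from −0.061 to 0.098 for Col1a1 and −0.21 to 0.022 for Lox. From 1 to 5 weeks on soft it ran from −0.31 to 0.076 for Col1a1 and −0.29 to 0.72 for Lox, from 3 to 5 weeks on soft from −0.22 to 0.042 for Col3a1, and from 1 to 3 weeks on stiff from −0.12 to 0.054 for Col3a1. The soft-primed switch ran from −0.37 to 0.34 for Col1a1, −1.01 to 0.87 for Col1a2, −0.21 to 0.22 for Col3a1 and −0.85 to 0.58 for Lox. The stiff-primed switch ran from −0.084 to 0.17, −0.0044 to 0.13, −0.14 to 0.20 and −0.022 to 0.25 for the same genes. A library left alone in its group was taken to vary as the other groups do.

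With the replicate number as a block, Col3a1 from 1 to 3 weeks on soft had an adjusted p of 0.046 and Lox for the priming surface turned to 0.0077, and the block changed no other call of the 4 genes. The criterion for pairing was met at 1 and 5 weeks and not at 3 weeks. Since the block took a number as the same unit at all weeks, its values between weeks rest on a pairing that was not checked. In the whole table the block gave 498 genes between 5w100 and 5w2 against 37 without it, 1802 against 1127 from 1 to 3 weeks on soft and 2297 against 1369 for the priming surface, and DESeq2 gave 592 between 5w100 and 5w2. Between 3w2→2w100 and 5w100 the counts were 8 without a block, 358 with it and 445 by DESeq2, and between 3w100→2w2 and 5w2 they were 25, 354 and 443. With each library left out, these 3 counts at 5 weeks ran from 0 to 313, 0 to 193 and 0 to 140. From 1 to 3 weeks on stiff the block gave 1872 against 1180. Total counts gave 22 for stiffness at 5 weeks. With no filter 49 genes, and with thinned counts 14, were called for 3w100→2w2 against 5w2. Fits on only the groups compared gave 1257 genes against 2152 from 1 to 5 weeks on soft, 1005 against 2417 on stiff, 585 against 1127 from 1 to 3 weeks on soft and 194 against 1369 for the priming surface. They gave 0 between 5w100 and 5w2, where 20 were called without the 3 libraries that stood apart, and 0 in both comparisons of switched cultures on the same final surface. For the 4 comparisons before these, the counts without those 3 libraries were 933, 2334, 583 and 674. Lengths of transcripts were not used here, so the planned comparison of levels per length was not run.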
